A study of Mus musculus with 8 samples.

Results

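The 35 genes described here encode the enzymes of glycolysis, glucose and lactate transporters, pyruvate dehydrogenase kinases and other transcripts that cells raise when oxygen is low. They were chosen as a list of 35 symbols and found by their Ensembl identifiers among the 17938 genes of the knockdown table and the 18292 genes of the overexpression table, and all 35 were measured in both. They comprised 18 glycolytic enzymes, 4 transporters, 2 kinases, 10 other targets of the hypoxia-inducible factor (HIF), and the HIF subunit gene Hif1a. Aldoa is annotated under 2 identifiers. The values below are those of ENSMUSG00000030695, because ENSMUSG00000114515 held 14.6 to 28.6 normalised reads per library and was not called in the knockdown (log2 fold change 0.41) or the overexpression (0.21).

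RNA was sequenced from J1 cells, a line of mouse embryonic stem (ES) cells, in 8 libraries that formed 4 groups of 2. KD control cells (genotype label wild type) carried a pSuper puro vector with a random hairpin, and KD Zscan4 cells carried the same vector with a hairpin against Zscan4, a family of zinc finger genes active in the early embryo. Both were kept in puromycin at 2 µg/ml for 7 days. OE control cells (wild type) carried the control of the overexpression experiment, and OE Zscan4 cells carried the coding sequence of Zscan4c in pCMV-tag2, and both were kept in G418 at 500 µg/ml for 10 days. All cells grew with 15% serum and 10 ng/ml leukaemia inhibitory factor. Monoclonal cells were picked. Whether the 2 libraries of a group are separate clones or cultures is not in the labels. The p-values therefore speak of the spread between libraries alone, and that spread may be technical.

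Glycolysis splits glucose into pyruvate, and lactate dehydrogenase, a tetramer of subunits from Ldha and Ldhb, converts pyruvate and lactate into each other. ES cells are known for a high rate of glycolysis even where oxygen is present. HIF is a pair of an oxygen-sensitive alpha subunit, such as the product of Hif1a, and a stable beta subunit. Prolyl hydroxylases encoded by Egln genes mark the alpha subunit for destruction while oxygen is present. When oxygen is low HIF binds short DNA elements with the core ACGTG or GCGTG near its targets, among them the genes of many glycolytic enzymes.

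The letters upstream of 4 of the genes are shown because these genes differed in how they moved in the 2 comparisons. Each sequence is the 250 bases before the RefSeq start site (build GRCm38.p6), with matches to ACGTG or GCGTG on either strand in capitals. Bnip3 and Ankrd37 rose in the knockdown and fell in the overexpression, P4ha1 fell in the overexpression and was not called in the knockdown, and Ldhb had the highest rise of the 35 in the knockdown.
Bnip3, chr7:138909507-138909756, minus strand: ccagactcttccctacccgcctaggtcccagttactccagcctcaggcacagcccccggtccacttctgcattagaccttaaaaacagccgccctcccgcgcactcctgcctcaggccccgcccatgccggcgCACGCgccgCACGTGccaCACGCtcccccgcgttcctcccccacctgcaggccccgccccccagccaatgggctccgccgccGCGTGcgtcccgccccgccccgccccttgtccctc
Ankrd37, chr8:45999851-46000100, minus strand: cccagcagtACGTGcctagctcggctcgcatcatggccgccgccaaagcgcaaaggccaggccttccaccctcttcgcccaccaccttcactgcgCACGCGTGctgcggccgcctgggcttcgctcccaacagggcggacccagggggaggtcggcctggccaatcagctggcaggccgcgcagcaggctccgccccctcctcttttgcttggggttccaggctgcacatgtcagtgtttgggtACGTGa
P4ha1, chr10:59323046-59323295, plus strand: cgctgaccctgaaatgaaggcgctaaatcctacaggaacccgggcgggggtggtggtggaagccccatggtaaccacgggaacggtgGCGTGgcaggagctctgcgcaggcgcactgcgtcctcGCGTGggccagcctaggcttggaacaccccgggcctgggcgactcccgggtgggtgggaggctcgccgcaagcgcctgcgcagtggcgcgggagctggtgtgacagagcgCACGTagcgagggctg
Ldhb, chr6:142507958-142508207, minus strand: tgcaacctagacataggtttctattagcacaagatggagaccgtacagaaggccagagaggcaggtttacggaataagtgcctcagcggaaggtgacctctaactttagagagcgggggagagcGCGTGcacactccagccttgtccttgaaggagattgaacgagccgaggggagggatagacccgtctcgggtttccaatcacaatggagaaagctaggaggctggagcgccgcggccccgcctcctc
Bnip3 held 5 matches, 117 to 35 bases before the start, and 2 of them overlap in the palindrome CACGTG. Ankrd37 held 4, of which the last lay 6 bases before the start, P4ha1 held 3, and Ldhb held 1, 126 bases before the start. RefSeq promoter windows of 300 bases (250 before to 50 after a start) were given for 32 of the 35 genes. Of their 48 windows, 37 (77.1%) held at least 1 match, as did 14380 of 32851 windows over all genes (43.8%). The palindrome CACGTG, which counts as a match on both strands, was in 12.5% of the windows of the 35 genes and 7.15% of all windows. A match is a stretch of letters and was not tested as a binding site. Both cores hold the letters CG, and the windows compared were not matched for base content or expression. All windows together covered 27025 genes, more than either table holds.

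The gene tables corresponded to 17.39 to 22.38 M reads per library. Zscan4c read 575.0 and 566.0 in KD control against 11.2 and 15.5 in KD Zscan4, and 60.1 and 75.2 in OE control against 1073.8 and 980.8 in OE Zscan4. Near-identical Zscan4 genes can share these reads, and the plasmid holds the same coding sequence. All 10 ES cell markers were measured in every group, and no measured marker of any list below was at 0 in a group. Foxa2, Col3a1, Cdx2 and Gata3 were absent from the overexpression table, and Elf5 from the knockdown table. Some measured markers were low, and 5 of the 12 primitive endoderm markers had a mean under 20 in KD Zscan4. Markers of other cell types moved with the groups. The 12 primitive endoderm markers all fell in the knockdown, where their summed values were 14411.5 and 14127.2 in KD control and 5647.3 and 5194.9 in KD Zscan4. In the overexpression 8 of 11 measured fell, and the sums were 7054.4 and 6789.0 in OE control and 5043.8 and 5109.8 in OE Zscan4. Sparc was the largest part of these sums, with means of 3969.5 in OE control and 2689.6 in OE Zscan4. It lies on chromosome 11, whose genes had a median log2 fold change of -0.34 in the overexpression. Fibroblast markers summed to 381.5 and 354.9 in KD control, 564.2 and 523.2 in KD Zscan4, 914.5 and 926.0 in OE control, and 433.8 and 393.6 in OE Zscan4, with Dcn and Lum in neither table; 3 of 7 measured rose in the knockdown and 3 of 6 fell in the overexpression. The 10 ES cell markers summed to 125313.4 and 122216.0 in OE control and 165722.7 and 166135.4 in OE Zscan4. In the overexpression 8 of them rose, whereas in the knockdown 3 rose and 4 fell. Their sums were 144709.3 and 143856.2 in KD control and 146436.6 and 141049.6 in KD Zscan4. Trophectoderm markers summed to 1225.1 and 1241.0 in KD control and 1907.8 and 1793.8 in KD Zscan4, and to 2119.8 and 1949.9 in OE control and 1696.9 and 1743.7 in OE Zscan4. Of these, 1 of 7 rose and 2 fell in the knockdown, and 3 of 6 fell in the overexpression. The 1 that rose was Tfap2c, with a mean of 976.4 in KD control and 1649.1 in KD Zscan4. The 2 that fell in the knockdown were Cdx2 (log2 fold change -1.13) and Eomes (-0.67), so the higher sum did not hold across the list. The part of these markers in the results for the 35 genes was not tested. In such bulk libraries fewer cells of a type and less RNA per cell cannot be told apart.

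The knockdown comparison sets cells with the Zscan4 hairpin against cells with the random one. Of the 35 genes, 17 rose, 5 fell and 13 were not called, with calls at an adjusted p under 0.05 from limma on log2(value + 1). Among all genes of the table, 17.2% rose and 18.5% fell. The median log2 fold change was 0.19 for the 35 genes and 0.01 for all genes. Of the 18 glycolytic enzymes 11 rose and 0 fell (median 0.27), whereas of the 10 other HIF targets 5 rose and 2 fell (median 0.12). The transporters, counted apart from these, had 0 rises and 2 falls of 4 (median -0.17), and the 2 kinases 1 rise and 1 fall. With the kinases added, the other HIF targets had 6 rises and 3 falls of 12 (median 0.12).

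Ldhb, the lactate dehydrogenase subunit of heart muscle, was at 1837 and 1728 normalised reads in KD control and at 9106 and 8412 in KD Zscan4. Both KD Zscan4 libraries lay far above both controls, which gave 2.30 on the log2 scale (SE 0.06, limma adjusted p = 1.7e-10). The gene spans chromosome 6 from 142490249 to 142507957 (ENSMUSG00000030246, mm10). Ldha, which encodes the subunit of skeletal muscle, was not called (0.14, adjusted p = 0.068). Leaving out KD Zscan4 replicate 2 (0.21), scaling by upper quartiles (0.17) or using limma-voom (0.14) made it a call. Among genes within 500 kb of Ldhb, chosen after its value was seen, St8sia1 rose by 1.15 (adjusted p = 1.9e-06) and Cmas by 0.24 (0.0062), while Golt1b (adjusted p = 0.99), Recql (0.41) and Pyroxd1 (0.74) were not called.

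Hexokinase takes the first step of the pathway. Hk1, the hexokinase of most adult tissues, was at 900.0 and 865.9 in KD control and at 1512 and 1444 in KD Zscan4, with no overlap (log2 fold change 0.74, SE 0.06, adjusted p = 3.3e-06). Hk2, the hexokinase known as the inducible one, was not called (-0.14, adjusted p = 0.057), but leaving out KD Zscan4 replicate 1 (-0.18), TMM scaling, edgeR or limma-voom (-0.14 in each of these 3) made it a call.

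Phosphofructokinase commits sugar to glycolysis. Its platelet-type gene Pfkp was at 1995 and 1833 in KD control and at 3988 and 4009 in KD Zscan4 (1.06, SE 0.06, adjusted p = 9.3e-08); KD Zscan4 was at 208.9% of the control mean. The liver-type Pfkl (-0.06) and the muscle-type Pfkm (0.15) were not called. Pfkfb3, which makes the activator of phosphofructokinase, was at 266.9 and 281.9 against 439.4 and 424.2 (0.65, SE 0.09, adjusted p = 1.8e-04), again without overlap.

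Aldoc, an aldolase best known from brain, was at 244.5 and 210.0 in KD control and at 468.8 and 365.0 in KD Zscan4 (0.87, SE 0.13, adjusted p = 2.6e-04). The 2 KD Zscan4 libraries differed from each other more than the controls did, yet both were higher. Smaller rises were called for the isomerase gene Gpi1 (0.34), the main aldolase gene Aldoa (0.29), the triose phosphate isomerase gene Tpi1 (0.26), the phosphoglycerate kinase gene Pgk1 (0.44) and the pyruvate kinase gene Pkm (0.20). Gapdh, often used as a reference transcript, was at 88700 and 86944 against 103821 and 96017 (0.19, SE 0.06, adjusted p = 0.023). The mutase gene Pgam1 (0.05), the enolase genes Eno1 (0.03) and Eno2 (0.43, adjusted p = 0.14) were not called, though Eno1 was called without KD Zscan4 replicate 2 (0.09).

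Of the 4 transporters 2 fell. Slc2a1, the widespread glucose transporter also named GLUT1, was at 25951 and 25894 in KD control and at 16952 and 15278 in KD Zscan4. It fell by 0.69 on the log2 scale (SE 0.06, adjusted p = 2.2e-06), and both KD Zscan4 libraries were well below the closely matched controls. Slc16a1, a carrier of lactate and pyruvate, fell (-0.25, adjusted p = 0.0024), and Slc2a3 (-0.09) and Slc16a3 (0.02) were not called, though Slc2a3 was called without KD Zscan4 replicate 1 (-0.13). Pyruvate dehydrogenase kinases hold pyruvate out of the mitochondrial citrate cycle, and the 2 measured here went in opposite directions, Pdk1 at -0.26 (adjusted p = 0.0015) and Pdk3 at 0.34 (0.0031).

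Among the other HIF targets, Ankrd37, a small ankyrin repeat gene, was at 98.5 and 79.7 in KD control and at 192.8 and 156.3 in KD Zscan4 (0.96, SE 0.17, adjusted p = 7.8e-04). Vegfa, the blood vessel growth factor, was at 415.5 and 427.9 against 684.0 and 714.4 (0.73, SE 0.08, adjusted p = 2.0e-05). Neither gene's groups overlapped. Bnip3 (0.37) and Bnip3l (0.53), whose products mark mitochondria for removal, and Higd1a, which encodes a small mitochondrial protein (0.24), also rose. Ndrg1, a stress-responsive gene, fell (-0.53, adjusted p = 0.011), as did the prolyl hydroxylase gene Egln3 (-0.27, adjusted p = 0.045). The prolyl hydroxylase gene Egln1 (-0.04), the histone demethylase gene Kdm3a (-0.02) and the collagen hydroxylase gene P4ha1 (0.01) were not called. Hif1a was at 1733 and 1712 in KD control and at 1557 and 1770 in KD Zscan4, overlapping groups with no call (-0.05, SE 0.07, adjusted p = 0.58).

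Of the 22 calls in the knockdown, 15 were kept in every alternative that included them. There were 15 alternatives, of which Aldoc, on chromosome 11, was not in the fit without chromosomes 1, 11 and Y. Without KD control replicate 2 the calls of Ndrg1 (-0.53), Tpi1 (0.19), Aldoa (0.26), Pkm (0.22), Egln3 (-0.26), Higd1a (0.24) and Gapdh (0.17) were lost, without KD control replicate 1 those of Pkm (0.19), Egln3 (-0.28), Higd1a (0.23) and Gapdh (0.20), without KD Zscan4 replicate 1 that of Higd1a (0.16), and without KD Zscan4 replicate 2 those of Ndrg1 (-0.41) and Egln3 (-0.17). DESeq2 lost Ndrg1, Egln3 and Higd1a (adjusted p = 0.078, 0.21 and 0.11), upper-quartile scaling Egln3, and the fit of all 8 libraries Gapdh (adjusted p = 0.073).

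**Figure D1:**
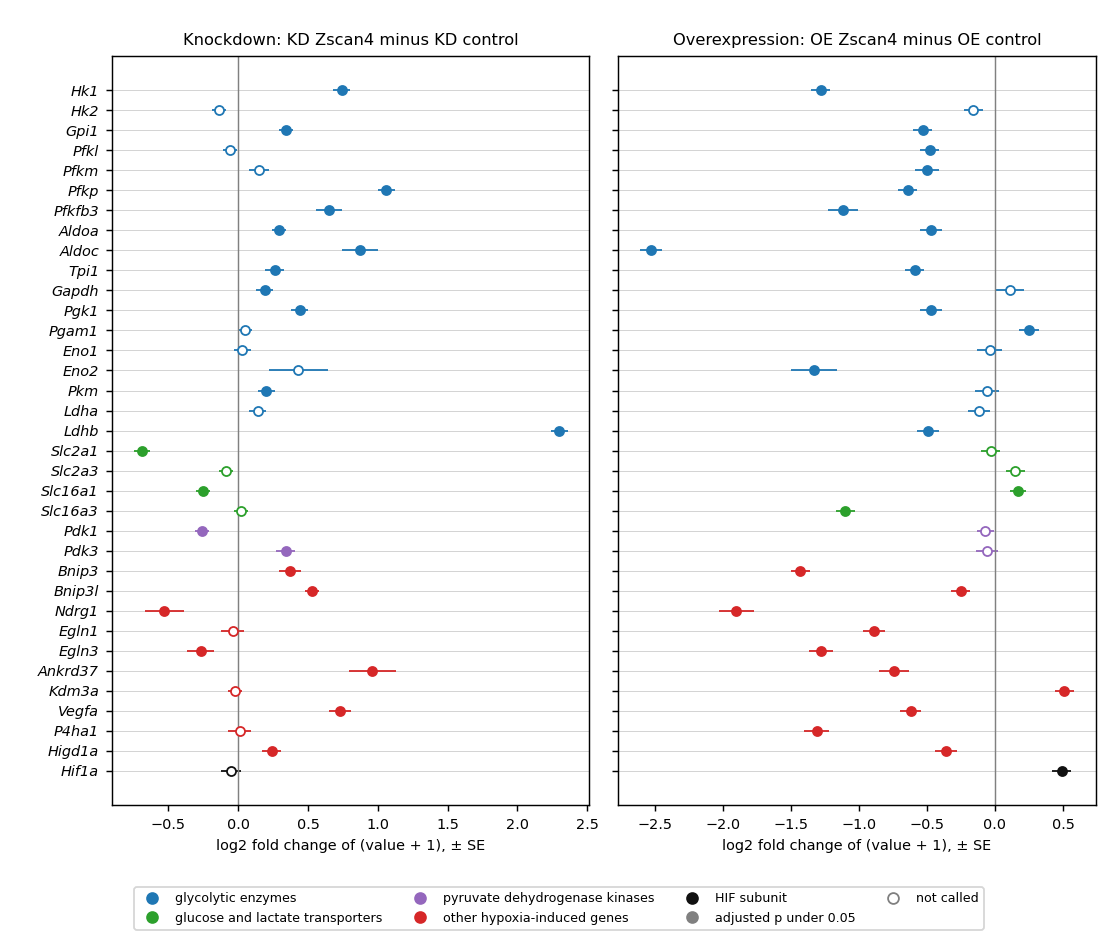
Log2 fold changes of (value + 1) of the 35 genes with their standard errors in the knockdown (left) and the overexpression (right), coloured by role; filled points passed an adjusted p under 0.05. In the knockdown Ldhb stood at 2.30 on the right and Slc2a1 at -0.69 on the left; in the overexpression Aldoc stood at -2.53, and Kdm3a and Hif1a lay right of 0.

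The overexpression comparison sets cells with added Zscan4c against their own control. Of the 35 genes 4 rose, 22 fell and 9 were not called. Among all genes, 22.3% rose and 22.1% fell. The median log2 fold change was -0.48 for the 35 genes and -0.00 for all genes. The enzymes had 1 rise and 12 falls of 18 (median -0.48), and the other HIF targets 1 rise and 9 falls of 10 (median -0.81). The transporters, counted apart from these, had 1 rise and 1 fall of 4 (median 0.06), and neither of the 2 kinases was called (median -0.06). With the kinases added, the other HIF targets had 1 rise and 9 falls of 12 (median -0.68).

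Aldoc was at 2004 and 1937 in OE control and at 329.6 and 352.3 in OE Zscan4. It fell to 17.3% of the control mean, with a log2 fold change of -2.53 (SE 0.08, adjusted p = 6.3e-13), and the groups lay far apart. Aldoc lies on chromosome 11 (78322968 to 78327781), whose genes had a median log2 fold change of -0.34 in the overexpression, and relative to that median it was at -2.19. The other aldolase gene, Aldoa, fell by 0.47.

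Hk1 was at 3265 and 3061 in OE control and at 1338 and 1261 in OE Zscan4 (-1.28, SE 0.07, adjusted p = 2.9e-10). Hk2 was not called (-0.16, adjusted p = 0.060), and 7 alternatives called it, with values of -0.15 to -0.18. Pfkfb3 was at 591.2 and 506.8 against 261.5 and 242.4 (-1.12, SE 0.11, adjusted p = 2.7e-07). Eno2, the neuronal enolase, was at 173.5 and 205.0 against 84.0 and 65.8 (-1.33, SE 0.17, adjusted p = 7.6e-06), a low transcript in every library. For each of Hk1, Pfkfb3 and Eno2 both OE Zscan4 libraries were below both controls.

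The 3 phosphofructokinase genes fell together, Pfkl by 0.48, Pfkm by 0.50 and Pfkp by 0.64 on the log2 scale. Gpi1 (-0.53), Tpi1 (-0.59), Pgk1 (-0.47) and Ldhb (-0.49) also fell. Pgam1 rose by 0.25 (adjusted p = 0.0088) and was the only enzyme of the 18 to do so. Gapdh was at 95375 and 80892 in OE control and at 93340 and 95977 in OE Zscan4, and the groups overlapped (0.11, SE 0.10, adjusted p = 0.39). Eno1 (-0.04), Pkm (-0.06) and Ldha (-0.12) were not called. Leaving out OE control replicate 2 made Ldha a call (-0.21), and leaving out OE control replicate 1 made Gapdh one (0.23).

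Of the transporters, Slc16a3, a lactate exporter, fell by 1.10 (SE 0.07, adjusted p = 3.4e-09). It also lies on chromosome 11, and relative to the median of that chromosome it was at -0.76. Slc16a1 was called as a rise (0.17, adjusted p = 0.043). Slc2a1 was at 13200 and 13498 in OE control and at 13204 and 12864 in OE Zscan4, overlapping groups without a call (-0.03, SE 0.07, adjusted p = 0.71). Slc2a3 (0.15), Pdk1 (-0.07) and Pdk3 (-0.06) were not called, though Slc2a3 was called in the fit of all 8 libraries (0.15) and without OE control replicate 1 (0.19).

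Of the 10 other HIF targets, a count without the transporters and kinases above, 9 fell. Ndrg1 was at 417.7 and 362.6 in OE control and at 105.3 and 102.4 in OE Zscan4 (-1.90, SE 0.13, adjusted p = 4.9e-09). Bnip3 was at 5236 and 4966 against 1807 and 1980 (-1.43, SE 0.07, adjusted p = 5.8e-11). P4ha1 was at 1776 and 1440 against 642.2 and 643.5 (-1.31, SE 0.09, adjusted p = 5.5e-09). The OE control libraries of P4ha1 differed more than those of Bnip3, and in all 3 genes both OE Zscan4 libraries were below both controls.

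Egln3, a prolyl hydroxylase that is itself induced by HIF, was at 993.6 and 1030 in OE control and at 446.5 and 385.2 in OE Zscan4 (-1.28, SE 0.09, adjusted p = 7.3e-09). Its relative Egln1 fell by 0.89, Ankrd37 by 0.74, Vegfa by 0.62, Higd1a by 0.36 and Bnip3l by 0.25. Kdm3a rose by 0.51 (SE 0.07, adjusted p = 8.6e-06) and was the only one of these 10 to rise. Hif1a was at 1467 and 1477 in OE control and at 2050 and 2076 in OE Zscan4, with tight pairs and no overlap (0.49, SE 0.07, adjusted p = 1.8e-05). Both OE Zscan4 libraries had the higher Hif1a values, and 9 of the 10 other HIF targets, counted without transporters and kinases, were lower there.

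Of the 26 calls in the overexpression, 23 were kept in every alternative that included them, and Aldoc and Slc16a3 were again absent from the fit without chromosomes 1, 11 and Y. Those of Pgam1, Bnip3l and Slc16a1 were lost without OE Zscan4 replicate 1 (0.23, -0.25 and 0.18) and without OE Zscan4 replicate 2 (0.27, -0.25 and 0.16), and Slc16a1 also missed the threshold with TMM (0.15), upper-quartile scaling (0.14), edgeR (adjusted p = 0.050), DESeq2 (0.064) and the replicate block (0.079).

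**Figure D2:**
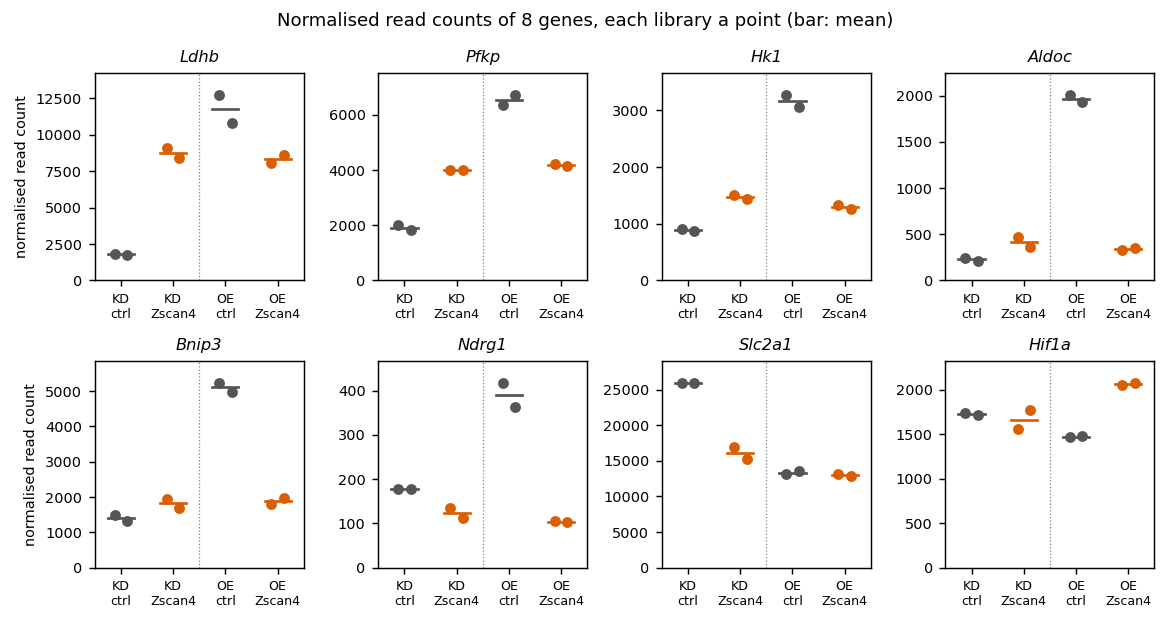
Normalised read counts of 8 genes in each library (points) with the group mean (bar), controls in grey and Zscan4 groups in orange; the dotted line separates the 2 arms, which were normalised apart. Ldhb goes from 1837 and 1728 in KD control to 9106 and 8412 in KD Zscan4, and for Hk1, Aldoc, Bnip3 and Ndrg1 the OE control pair lies above the other 6 libraries.

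The effects in the 2 arms share no control library, and they were compared gene by gene over the 17409 genes of both tables. Of the 35 genes, 14 rose in the knockdown and fell in the overexpression, which is 40.0% of the list beside 5.67% of all genes. These 14 were 82.4% of the 17 that rose in the knockdown and 63.6% of the 22 that fell in the overexpression, and over all genes the corresponding shares were 32.2% and 25.9%. The 14 were 9 enzyme genes (Hk1, Gpi1, Pfkp, Pfkfb3, Aldoa, Aldoc, Tpi1, Pgk1 and Ldhb) and 5 other HIF targets (Bnip3, Bnip3l, Ankrd37, Vegfa and Higd1a). Slc16a1 was the single gene that fell in the knockdown and rose in the overexpression, beside 6.65% of all genes. Ndrg1 and Egln3 fell in both (3.6% of all genes), and no gene of the 35 rose in both (3.88% of all genes). Some alternatives given above lost the knockdown calls of Ndrg1 and Egln3 and the overexpression call of Slc16a1. Hk2, Eno1, Ldha and Slc2a3 were called in neither (38.6% of all genes), though each was called in at least 1 arm under the alternatives given above. The count of 14 ranged from 11 to 14 as each library was left out, and was 13 with DESeq2.

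A contrast of the knockdown effect minus the overexpression effect tested the difference itself. It was called higher in the knockdown for 25 of the 35 genes and lower for 6, beside 21.8% and 22.9% of all genes, and its median was 0.77 for the list and -0.00 for all genes. Aldoc had a difference of 3.39 (SE 0.16, limma adjusted p = 1.1e-10), Ldhb 2.78 (SE 0.10, adjusted p = 1.0e-11) and Hk1 2.03 (SE 0.09, adjusted p = 8.1e-11). Slc2a1 (-0.65), Hif1a (-0.54), Kdm3a (-0.53), Slc16a1 (-0.42), Slc2a3 (-0.24) and Pdk1 (-0.19) were the 6 called lower. Differences of Hk2 (0.02), Gapdh (0.08), Eno1 (0.06) and Pgam1 (-0.20) were not called, though that of Pgam1 was called by edgeR (-0.21), DESeq2 (-0.22) and limma-voom (-0.21), and without KD Zscan4 replicate 1 (-0.25) or OE control replicate 1 (-0.24). Enzymes had a median difference of 0.80, with 14 of 18 higher, and the other HIF targets 1.17, with 9 of 10 higher. With the 2 kinases added to the latter, 10 of 12 were higher (median 0.93). The differences of Ldha, Pkm, Slc2a3 and Pdk1 (0.26, 0.26, -0.24 and -0.19) all lost their calls on leaving out KD control replicate 1, KD control replicate 2 or OE Zscan4 replicate 1. Those of Ldha and Pkm were also lost without KD Zscan4 replicate 1 (0.20 and 0.19), those of Slc2a3 and Pdk1 without KD Zscan4 replicate 2 (-0.21 and -0.17), and those of Ldha, Pkm and Pdk1 without OE control replicate 1 (0.18, 0.18 and -0.19) or OE Zscan4 replicate 2 (0.26, 0.30 and -0.19). Upper-quartile scaling lost Slc2a3 (-0.18) and Pdk1 (-0.13). Pkm also missed the threshold with a pseudocount of 5 (adjusted p = 0.058), a mean of at least 20 (0.057) and without chromosomes 1, 11 and Y (0.053), and the replicate block lost Ldha, Pkm and Pdk1 (adjusted p = 0.059, 0.11 and 0.080).

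**Figure D3:**
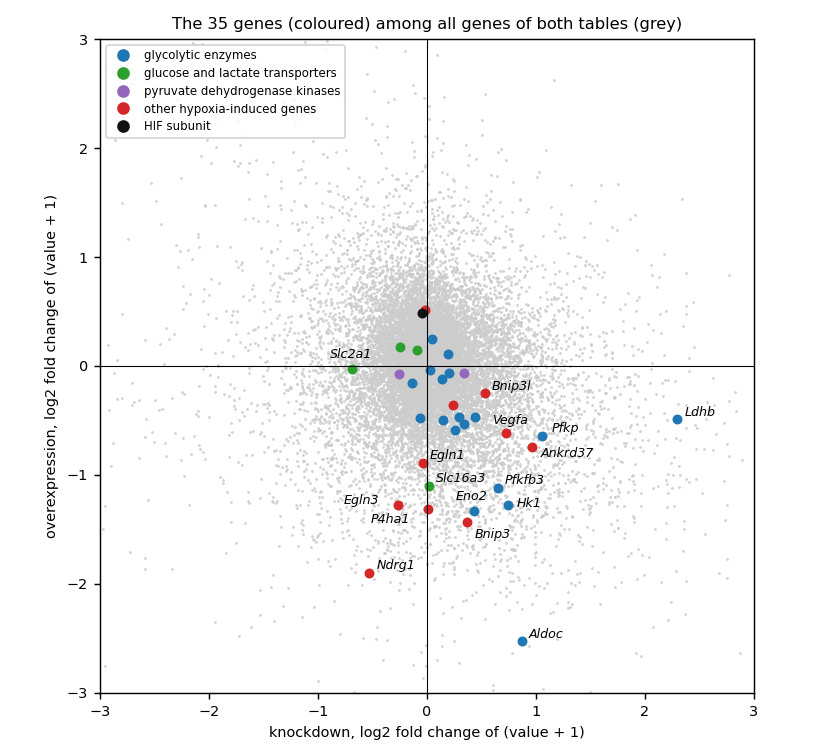
Log2 fold change of each gene in the knockdown (horizontal) and in the overexpression (vertical), with the 35 genes in colour by role and all other genes of both tables in grey; 143 genes beyond 3 on either axis are not drawn. Many coloured points lie in the lower right part of the plot, with Ldhb far right (2.30, -0.49) and Aldoc lowest (0.87, -2.53), while Ndrg1 is at the lower left (-0.53, -1.90).

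To place the 4 groups side by side, reads of the 17409 shared genes were scaled with a common set of factors for all 8 libraries. These levels are a description without a test, since vector, selection and table differ between the arms and cannot be told apart from the arm. Both OE control libraries lay above all 6 others in 23 of the 35 genes, beside 21.0% of all genes. Both KD control libraries lay below all 6 others in 15 of the 35 (19.3% of all genes), and 13 genes had KD control lowest and OE control highest at once, beside 8.06% of all genes.

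Aldoc had a jointly scaled level of 246.4 and 211.5 in KD control, 464.8 and 362.7 in KD Zscan4, 1993 and 1923 in OE control, and 326.7 and 350.6 in OE Zscan4. The OE control mean was 8.55 times the KD control mean, and the OE Zscan4 mean was 0.819 times the KD Zscan4 mean. For Ldhb the OE control was 6.51 times the KD control and OE Zscan4 was 0.957 times KD Zscan4. The corresponding ratios were 3.53 and 0.879 for Hk1, 3.57 and 1.04 for Bnip3, 3.36 and 1.05 for Pfkp, and 4.63 and 1.43 for Ankrd37.

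Slc2a1 and Slc2a3 were the 2 of the 35 genes with both KD control libraries above all 6 others, beside 22.4% of all genes. The jointly scaled level of Slc2a1 was 26149 and 26077 in KD control, 16805 and 15184 in KD Zscan4, 13126 and 13404 in OE control, and 13090 and 12802 in OE Zscan4. Hif1a and Kdm3a had both OE Zscan4 libraries above all others, as did 11.3% of all genes. They also had both OE control libraries below all others, as did 21.8% of all genes. Gapdh and Eno1 had no group alone at either end.

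**Figure D4:**
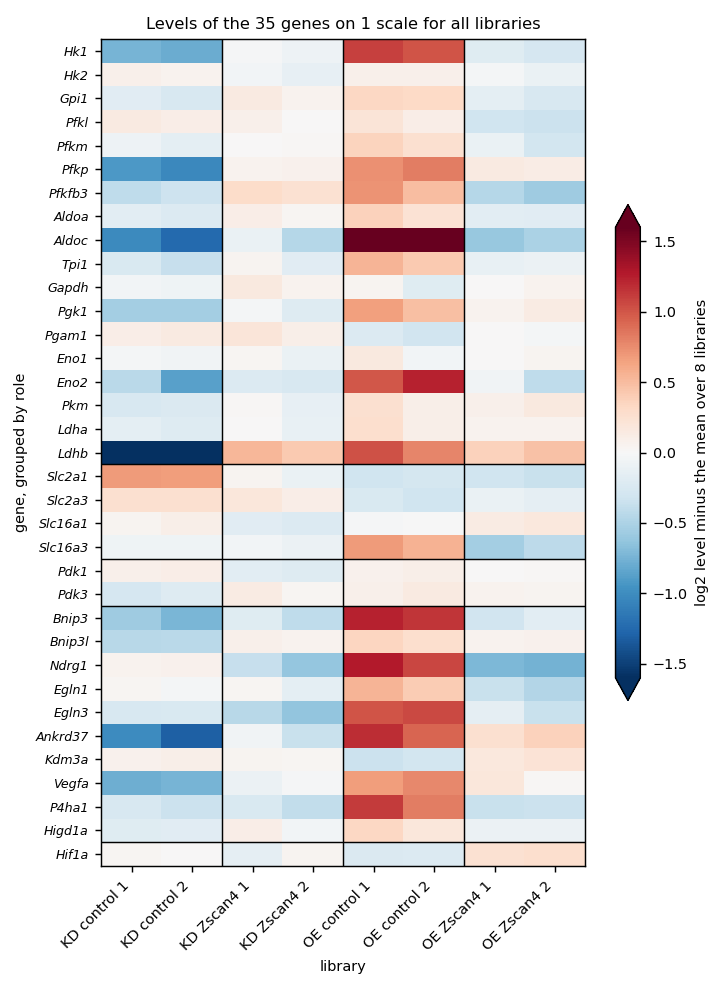
Log2 level of each of the 35 genes (rows, grouped by role) in each of the 8 libraries (columns) minus its mean over the libraries, after scaling all libraries together; red is above and blue below the mean, and colours end at 1.6 on the log2 scale. The 2 OE control columns are red in most rows, the KD control columns are blue in rows such as Ldhb, Pfkp and Ankrd37, and the glucose transporter rows run the other way.

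Shares within enzyme families were taken from values per kb of merged exon, so that genes of different length can be compared, and are given without a test. Ldhb made up 9.57% and 9.33% of the summed Ldha and Ldhb level per kb in KD control, and 31.6% and 31.9% in KD Zscan4. In OE control its share was 35.1% and 34.1%, and in OE Zscan4 28.5% and 29.8%. The low share in KD control stood apart from the other 3 groups. The summed level per kb of both genes was 12231.4 and 11801.7 in KD control and 18347.7 and 16819.4 in KD Zscan4.

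Hk1 had 9.65% and 9.46% of the hexokinase level per kb of Hk1 and Hk2 in KD control and 16.2% and 16.4% in KD Zscan4, against 27.7% and 26.3% in OE control and 14.5% in each OE Zscan4 library. Here OE control stood highest and the 2 Zscan4 groups lay close together. Among the phosphofructokinases, the share of Pfkp was 10.8% and 10.3% in KD control and 19.7% and 20.4% in KD Zscan4, while it was 25.7% and 28.1% in OE control and 24.6% and 25.0% in OE Zscan4. The shares of Pfkl in the overexpression arm were 57.2% and 55.4% in the control and 57.5% and 58.7% in OE Zscan4, beside falls of all 3 genes. Slc16a3 had 46.3% and 43.8% of the level per kb of Slc16a1 and Slc16a3 in OE control and 24.7% and 26.1% in OE Zscan4, against 32.8% and 32.0% in KD control and 36.8% and 36.7% in KD Zscan4.

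Some isoforms remained a small part of their family in every group. Aldoc was 0.637% to 1.11% of the aldolase level per kb of Aldoa and Aldoc in all groups but OE control, where it was 3.87% and 4.08%. Eno2 never exceeded 0.329% of the enolase level of Eno1 and Eno2. Egln3 had 50.4% and 53.7% of the level of Egln1 and Egln3 in OE control and 46.0% and 44.4% in OE Zscan4, and 37.9% and 39.0% in KD control against 34.8% and 34.6% in KD Zscan4.

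**Figure D5:**
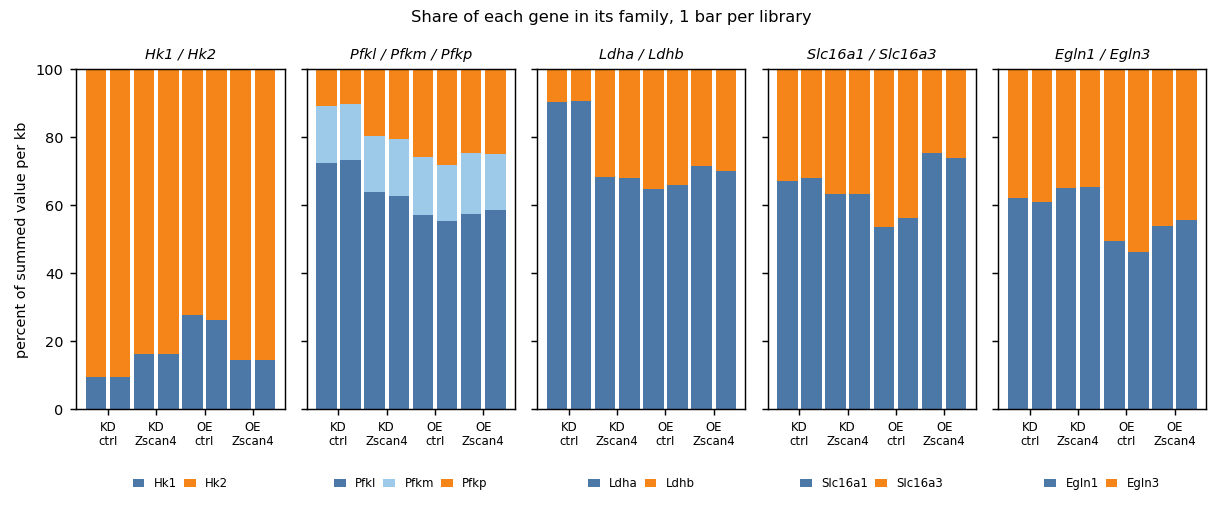
Percent of the summed value per kb taken by each gene of 5 families (panels), with 1 bar for each of the 8 libraries in the order of the groups. The Ldhb share is smallest in the 2 KD control bars (9.57% and 9.33%), and the Hk1 share is largest in the 2 OE control bars (27.7% and 26.3%).

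Other genes around the pathway were read from lists of neighbouring functions. Of 22 further glycolysis genes measured in the knockdown, 9 rose and 4 fell, with the falls of Fbp2, a fructose bisphosphatase of muscle (-1.50), Ldhd, a mitochondrial D-lactate dehydrogenase (-1.30), and Hkdc1, a hexokinase relative (-1.17), being the largest called changes among genes with a mean of at least 20. In the overexpression 2 of 22 rose and 11 fell. Among the falls were those of Ldhc, the testis lactate dehydrogenase (-2.17), and Slc2a4, the insulin-responsive glucose transporter (-1.35). Ldhd fell in this arm too (-0.67). Slc2a4 lies on chromosome 11, with its median of -0.34. Its values were low, at 54.4 and 49.4 in OE control and 13.8 and 28.2 in OE Zscan4. Those of Hkdc1 were 32.2 and 31.4 in KD control and 17.3 and 10.7 in KD Zscan4.

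Of 12 genes that carry pyruvate into mitochondria or control its entry, 5 rose and 2 fell in the knockdown, and 2 rose and 5 fell in the overexpression. The kinase gene Pdk4 was at 66.3 and 55.0 in KD control and at 86.3 and 100 in KD Zscan4 (0.61, adjusted p = 0.026). In the other arm it was at 206.9 and 255.5 in OE control and at 54.2 and 87.4 in OE Zscan4 (-1.72, adjusted p = 2.1e-06). Its groups overlapped in neither arm. The phosphatase gene Pdp2 rose in the knockdown (0.59) and the pyruvate carrier gene Mpc1 fell (-0.33). Pdk2, on chromosome 11 (-0.76), the carrier gene Mpc2 (-0.54) and Pdp2 (-0.39) fell in the overexpression. Mpc2 rose in the knockdown (0.31), and it lies on chromosome 1, whose median there was 0.56.

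In the pentose phosphate pathway, a side branch that makes NADPH and ribose, 3 of 10 genes rose and 3 fell in the knockdown, and 3 rose and 1 fell in the overexpression. H6pd, the enzyme of the endoplasmic reticulum, rose in the knockdown (0.77) and fell in the overexpression (-0.40). G6pdx, the cytosolic enzyme of the same step, fell in the knockdown (-0.29) and rose in the overexpression (0.40). The lactonase gene Pgls fell in the knockdown (-0.59). Rpe rose in both (0.52 and 0.29), and it lies on chromosome 1, whose genes had a median of 0.56 in the knockdown. None of the 35 genes lies on chromosome 1.

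The machinery of the HIF pathway had 2 rises and 6 falls of 13 genes in the knockdown and 7 rises and 1 fall in the overexpression. Epas1, which encodes the alpha subunit HIF-2 alpha, fell in the knockdown (-0.88), as did the beta subunit genes Arnt (-0.69) and Arnt2 (-0.82). In the overexpression Hif3a, a further alpha subunit gene, fell (-1.35). Elob (0.74), part of the ligase that removes HIF, and the prolyl hydroxylase gene Egln2 (0.56) rose there. Hif3a and Egln2 both fell in the knockdown (-0.38 and -0.20). Epas1 had values of 530.2 and 554.8 in KD control and 294.3 and 293.1 in KD Zscan4, without overlap.

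Of HIF targets outside the 35 genes, 9 rose and 8 fell of 27 measured in the knockdown, and 3 rose and 19 fell of 28 in the overexpression. Their median log2 fold changes were -0.07 and -0.61. In the knockdown Car12, a carbonic anhydrase (1.67), and Ppp1r3c, a regulator of glycogen (1.07), rose. Ppp1r3c was low, at 15.2 and 22.5 in KD control and 54.8 and 29.1 in KD Zscan4. In the overexpression the peptide hormone gene Adm (-2.30), the repressor gene Bhlhe40 (-1.90) and Ddit4, an inhibitor of mTOR signalling (-1.68), fell. Adm was low, at 41.0 and 34.0 in OE control and 11.7 and 3.76 in OE Zscan4. Bhlhe40 and Ddit4 also fell in the knockdown (-0.67 and -0.37), whereas Car12 and Ppp1r3c fell in the overexpression (-1.27 and -1.25). Ddit4 was at 3226 and 2940 in OE control and at 918.6 and 1007 in OE Zscan4.

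Some of the 35 genes have near-identical processed copies to which their reads could be assigned. Copies were sought by name, as a gene's symbol followed by -ps or -rs, or as Aldoart. Of 14 found in the annotation 5 were in each table, and copies under other names were not counted. Pgam1-ps2 had 8.3% of the value of Pgam1 in the knockdown and 7.9% in the overexpression, Gapdh-ps15 1.1% of Gapdh in both, and Pgk1-rs7 2.7% and 2.5% of Pgk1. Pgk1-rs7 rose in the knockdown (0.34) and fell in the overexpression (-0.49), as its parent did (0.44 and -0.47). Gapdh-ps15 lies on chromosome Y, whose medians were -2.2 in the knockdown and -6.02 in the overexpression. In these comparisons the copy was at 0.21 and 0.14, beside 0.19 and 0.11 for Gapdh. Whether its reads came from Gapdh was not tested. The values of Pgam1, Gapdh and Pgk1 are uncertain by what such copies share with them.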

How the data were processed

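RNA-seq libraries of J1 cells were grouped by their titles, 2 per group. The submitters' processing notes name cutadapt, HISAT2, featureCounts, DESeq2 and the build mm10, and give no versions. Whether reads were counted by strand is not given in the sources used here, so overlapping and antisense genes are uncertain. The authors deposited gene tables of normalised signal for each arm. These values are whole reads divided by a factor per library, equal to the median-of-ratios factor that DESeq2 uses: multiplied back, 100% lay within 0.01 of a whole number. Within groups, libraries differed by more than counting noise (chi-square per degree of freedom 2.94 to 4.96), so each counted once.

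Each arm was tested with limma 3.58.1 (R 4.3.3) on log2(value + 1), two-sided, with Benjamini-Hochberg adjustment over all genes of the table and a threshold of 0.05. Fold changes are on that scale, which understates changes of low genes. The difference of effects was a contrast over the genes of both tables. On recovered reads edgeR 4.0.16 called 6483 genes in the knockdown and 8185 in the overexpression, beside 6403 and 8111 with limma. Other alternatives were DESeq2 1.42.0, limma-voom, TMM and upper-quartile scaling, pseudocounts of 0.5 and 5, a mean of at least 20, 1 fit of all libraries, a replicate block, leaving out each library, and leaving out chromosomes 1, 11 and Y. Chromosome 1 had a median log2 fold change of 0.56 in the knockdown and chromosome 11 of -0.34 in the overexpression. Chromosome Y, with 5 protein-coding genes at a mean of at least 20, had medians of -2.2 in the knockdown and -6.02 in the overexpression. Control and Zscan4 groups thus differed along these chromosomes in at least 1 arm, and the cause was not tested. Subtracting the chromosome's median was chosen after seeing the data. Symbols, positions and merged exon lengths came from GENCODE M21 (GRCm38, the build of mm10).

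The members and lists were chosen with earlier results of these data known. All 35 members are named, with values of each library for the 8 largest called changes per comparison and for Hif1a, Gapdh and Slc2a1. Of each other list up to 3 called genes with the largest changes and a mean of at least 20 are named, and of processed copies the highest 3 by mean. List counts include a few selected genes whose own values are not reported here. Library values of Pdk4, Epas1 and Ddit4 and the neighbours of Ldhb were chosen after values were seen. The procedure was tested on simulated data.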

Additional observations from a re-analysis of the deposited data

Results flagged for a closer look

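For 31 of the 35 genes the effect in the knockdown and the effect in the overexpression differed by a test of the difference itself (limma contrast, adjusted p under 0.05). Values are the knockdown log2 fold change minus the overexpression log2 fold change. Among enzymes the difference was 3.39 for Aldoc, 2.78 for Ldhb, 2.03 for Hk1, 1.77 for Pfkfb3, 1.76 for Eno2 and 1.71 for Pfkp. It was 0.91 for Pgk1, 0.87 for Gpi1, 0.84 for Tpi1, 0.76 for Aldoa, 0.65 for Pfkm, 0.42 for Pfkl, and 0.26 for both Ldha and Pkm, the last with an adjusted p of 0.05 after rounding.

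Of the transporters, Slc16a3 had a difference of 1.13, Slc16a1 -0.42, Slc2a1 -0.65 and Slc2a3 -0.24. The kinase genes Pdk3 and Pdk1 had 0.40 and -0.19. Among the other HIF targets the difference was 1.80 for Bnip3, 1.70 for Ankrd37, 1.36 for Ndrg1, 1.35 for Vegfa, 1.32 for P4ha1, 1.01 for Egln3, 0.85 for Egln1, 0.77 for Bnip3l, 0.59 for Higd1a and -0.53 for Kdm3a. Hif1a had -0.54. Ndrg1 and Egln3 fell in both arms, with knockdown calls that some alternatives lost, and fell further in the overexpression.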

How the results depend on the processing

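All genes called in the knockdown numbered 6403, and 4141 with DESeq2. The 5 members that fell in the knockdown were 3 with DESeq2 and 3 to 7 as each library was left out. The 4 that rose in the overexpression were 2 to 6 on leaving out a library. Signs turned only in genes without a call in the main result. With Zscan4 knocked down, Kdm3a was at 0.01 with upper-quartile scaling and P4ha1 at -6e-05 with limma-voom. On leaving out a library, knockdown values ran from -0.07 to 0.09 for P4ha1, -0.01 to 0.10 for Pgam1, -0.15 to 0.04 for Hif1a, -0.003 to 0.05 for Slc16a3, -0.04 to 0.09 for Eno1 and -0.13 to 0.06 for Egln1. In the overexpression they ran from -0.14 to 0.02 for Pkm, -0.13 to 0.06 for Eno1 and -0.01 to 0.23 for Gapdh, and in the difference from -0.02 to 0.07 for Hk2, -0.04 to 0.16 for Eno1 and -0.04 to 0.2 for Gapdh. The causes were not tested. Libraries with the same replicate number did not deviate together across genes (correlation -0.059 for the knockdown, -0.039 for the overexpression). This does not show whether the libraries were paired when made, which is unknown. With a replicate block 6924 genes were called for the knockdown and 8188 for the overexpression. Among the 35 genes the call of Slc16a1 in the overexpression and those of Pdk1, Pkm and Ldha in the difference were lost. Scaling moved the median of all genes to 0.034 at most. With 2 libraries a group, leaving out a library leaves a lone sample that is assumed to vary like the other groups.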
